A study of Mus musculus with 4 samples.

Results

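Imprinted genes and their neighbours in imprinted domains were followed in RNA sequencing of primary fibroblasts from mouse lung, as the labels name them. The list held 41 genes, chosen by name from known mouse imprinted genes and the genes beside them, with earlier results of these data known. Each of the 41 matched 1 of the 54532 rows of the deposited gene table. The cells had the genotype label Calu-WT (WT below, 2 libraries) or Calu-KO (2 libraries), where Calu is the gene of calumenin, which binds calcium in the secretory pathway. The titles mark the libraries NC and KD, and neither the way the gene was targeted, the strain, the age of the animals nor a source from separate animals or cultures is given in the sources used here. The p-values below therefore rest on a spread between libraries that may be technical alone.

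An imprinted gene is transcribed from the maternal or the paternal copy alone, because the other copy carries a silencing mark set in the egg or sperm. The mark is DNA methylation at an imprinting control region, which often acts on a whole domain through a long noncoding RNA or an insulator. Many imprinted genes act on growth: the paternally expressed genes tend to promote it and the maternally expressed genes to restrain it. Mesenchymal cells, fibroblasts among them, commonly express H19, Meg3, Peg3, Plagl1, Ndn and Mest at some stage, and many of these genes are turned down after birth. Values from whole genes do not show which parental copy was read, and in bulk RNA fewer expressing cells and less RNA per cell cannot be told apart.

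Values are fragments scaled by gene length and library size (FPKM), and reads per gene were recovered from the steps of these values. The libraries held 15635448 to 16510048 reads. The FPKM values of Calu-KO replicate 2 were scaled to 14612161 reads, fewer than the 16038560 it held. Every other library was scaled to more reads than it held, so FPKM in Calu-KO replicate 2 stands higher for the same share of reads. Calu stood at 178 and 177 FPKM in WT and at 14.9 and 10.9 FPKM in Calu-KO, and its log2 change was -3.70 ± 0.17 (SE; limma, adjusted p = 0.00493). Calu-KO replicate 2 had 4.0% of its reads in mitochondrial genes, against 2.43% to 2.53% in the other libraries. Of 12 fibroblast markers 7 were tested: Col1a1, Col1a2, Fn1, Pdgfra, Pdgfrb and Vim did not pass, and the collagen gene Col3a1 fell from 38.9 and 39.4 FPKM in WT to 11.9 and 12.2 FPKM in Calu-KO (limma, adjusted p = 0.0115). Thy1, Fap and Postn were under 1 FPKM, and Dcn, which encodes decorin, and Lum, which encodes lumican, had no read in any library.

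Most of the imprinted genes lay under a mean of 1 FPKM or had no read. Of the 41, 16 reached a mean of 1 FPKM over the 4 libraries, 12 had reads but lay under 1 FPKM, and 13 had no read in any library. Of the 12 low genes, 6 had 1 to 3 reads over all libraries together. Of all rows, 21.8% reached 1 FPKM and 55.1% had no read. Among protein-coding rows the shares were 46.3% and 29.5%, and among the 34 protein-coding imprinted genes 41.2% and 29.4%. The share of silent genes was thus near that of protein-coding genes in general. With no read, the level that 3 reads would give, between 0.0098 and 0.0835 FPKM by gene length and library, is the limit on each of the 13 genes, for counting error only.

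**Figure D1:**
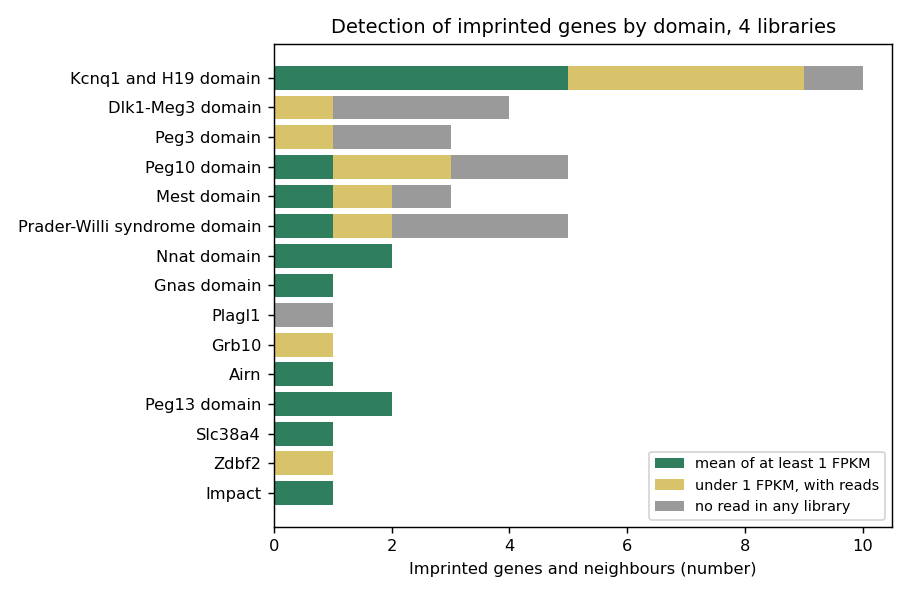
Number of imprinted genes and neighbours (x axis) in each imprinted domain (y axis) by detection over the 4 libraries: a mean of at least 1 FPKM, under 1 FPKM with reads, or no read in any library. The Dlk1-Meg3 and Peg3 domains have no gene at 1 FPKM, and the domain of Kcnq1 and H19 has 5 of 10.

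The Dlk1-Meg3 domain on chromosome 12 was nearly empty of reads. Dlk1, a membrane protein related to the Notch ligands, Meg3, a long noncoding RNA, and Mirg, the host transcript of a microRNA cluster, had no read in any library. Rian, a host of small nucleolar RNAs, had 2 reads in WT replicate 2 and none elsewhere. From the start of Dlk1 to the end of Mirg (chr12:109452823-109749460, mm10) the table held 104 rows, of which 66 were microRNA and 23 small nucleolar RNA genes, and 2 rows had any read, 4 reads in all. Mature small RNAs are poorly captured by standard libraries, and the host transcripts Meg3, Rian and Mirg are not small.

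The Peg3 domain on proximal chromosome 7 was equally quiet. Peg3, a zinc finger protein made from the paternal copy, and Zim1, a maternally expressed zinc finger gene, had no read. Usp29, which encodes a ubiquitin protease and shares the Peg3 promoter region, had 2 reads in WT replicate 1 and none in the other libraries. No other row of this stretch had a read. At the Meg3 length, 3 reads would be 0.0098 to 0.0113 FPKM, and at the Peg3 length 0.0133 to 0.0154 FPKM.

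Outside such clusters Plagl1, Zdbf2 and Grb10 had few reads or none. Plagl1, a zinc finger transcription factor that restrains growth and acts on other imprinted genes, had no read in any library. Its non-imprinted relatives Plag1 (0.773 to 1.44 FPKM) and Plagl2 (12.2 to 16.3 FPKM) were read in every library, and neither passed the test. Zdbf2 had 1 read, in WT replicate 2. Grb10, an adaptor that dampens insulin and growth factor receptor signalling, had 2 and 8 WT reads against 4 and 5 Calu-KO reads, 0.0134 to 0.053 FPKM, and the groups overlapped.

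In the Prader-Willi syndrome domain of chromosome 7, detection differed from gene to gene. Ndn, which encodes the growth suppressor necdin, Magel2, which encodes a regulator of a ubiquitin ligase, and Peg12 had no read. Snrpn, which encodes a small nuclear ribonucleoprotein of the splicing machinery, stood at 4.58 and 4.96 FPKM in WT and at 5.01 and 4.94 FPKM in Calu-KO. The groups overlapped, and the log2 change was 0.05 ± 0.12 (SE; limma, adjusted p = 0.804). Mkrn3, a ubiquitin ligase gene, had 31 and 27 WT reads against 50 and 23 Calu-KO reads, 0.618 to 1.16 FPKM, and its mean of 0.79 FPKM was the highest of the genes under the filter of 1 FPKM. Nnat, at a mean of 1.2 FPKM, was the lowest gene that passed it.

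The Peg10 domain on chromosome 6 showed the same contrast between neighbours. Peg10, derived from a retrotransposon, and Asb4 had no read, and Sgce, the epsilon-sarcoglycan gene that starts beside Peg10, had 1 read in WT replicate 1. Ppp1r9a, which encodes the actin-binding protein neurabin, had 0 and 8 WT reads against 9 and 10 Calu-KO reads. Pon2, an intracellular paraoxonase, stood at 5.20 and 5.09 FPKM in WT and 5.30 and 5.25 FPKM in Calu-KO. The Calu-KO libraries lay above WT by less than the error of the fit, at a log2 change of 0.03 ± 0.11 (SE; limma, adjusted p = 0.884). Its neighbour Pon3, a related enzyme, ran from 12.7 to 17.4 FPKM and did not pass.

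Mest, Copg2 and Klf14 lie on the same chromosome as Calu, 1346, 1370 and 1579 kb from it. Mest, a paternally expressed hydrolase gene, had 15 and 2 WT reads against 1 and 13 Calu-KO reads, so the spread within each group exceeded any difference between them. Klf14, a maternally expressed zinc finger gene, had no read. Copg2, a subunit of the coat of transport vesicles, stood at 10.4 and 10.3 FPKM in WT and at 11.7 and 17.7 FPKM in Calu-KO. Both Calu-KO libraries lay above WT, replicate 2 by far the more, and the log2 change of 0.44 ± 0.21 (SE) did not pass (adjusted p = 0.254, limma). Mest and Copg2 overlap by 912 bases on opposite strands, and without a stated strand setting reads of that overlap cannot be told apart.

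**Figure D2:**
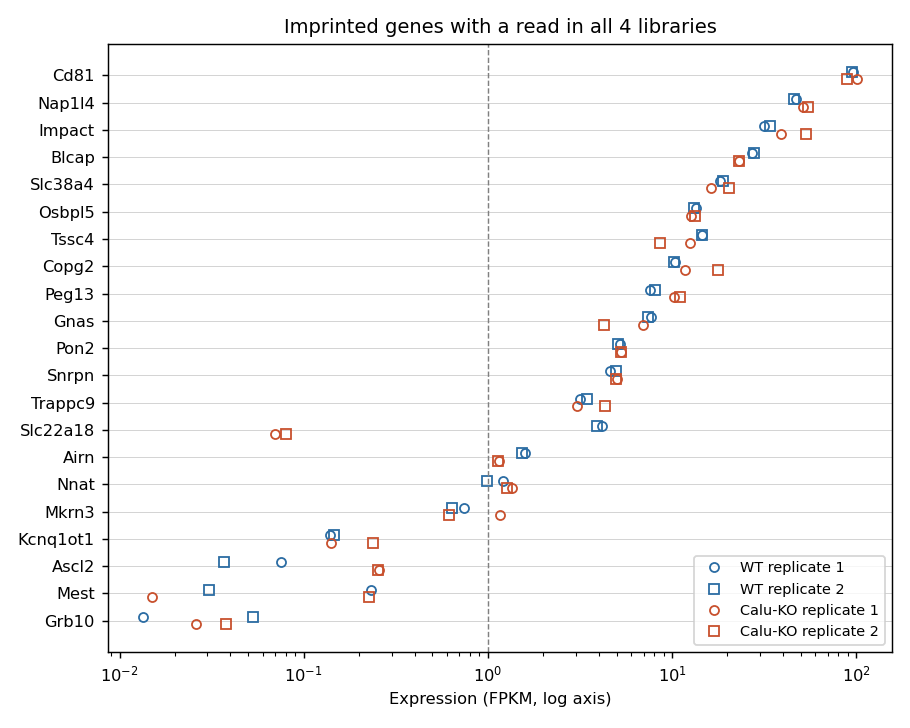
Expression in FPKM (log axis) of the 21 imprinted genes with a read in all 4 libraries, 1 point per library, WT in blue and Calu-KO in orange. Slc22a18 is the gene whose groups lie farthest apart, near 4 FPKM in WT and under 0.1 FPKM in Calu-KO.

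Of the 16 imprinted genes tested, 1 fell and 0 rose in Calu-KO. The gene that fell was Slc22a18. Over all 11885 genes tested, 1.83% were called lower and 0.942% higher (limma, Benjamini-Hochberg adjusted p under 0.05), and an unadjusted p under 0.05 was found for 3 of the 16 imprinted genes (18.8%) and for 24.8% of all tested genes. The median log2 change of the 16 was 0.01, the same as the 0.01 of all tested genes, and 8 of them were positive. Slc22a18 was also the 1 gene of the 16 that moved by at least 1 on the log2 scale, against 3.3% of all tested genes. Calu-KO libraries lay above both WT libraries for 6 of the 16 genes and below them for 5, near the shares of 32% and 29.7% of all tested genes.

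Slc22a18 (ENSMUSG00000000154, chr7:143473736-143499334, mm10, plus strand, protein coding) encodes a membrane protein of the organic cation transporter family and is maternally expressed under the control of the Kcnq1ot1 domain. It stood at 4.17 and 3.93 FPKM in WT and at 0.0696 and 0.0806 FPKM in Calu-KO. These values came from 116 and 111 WT reads and from 2 reads in each Calu-KO library, so the groups were far apart and the replicates close. The mean was 54.0-fold lower in Calu-KO (4.05 ± 0.168 against 0.0751 ± 0.00773 FPKM, SD, n = 2 each). From the reads alone the fold was 54.2, with an exact 95% binomial counting interval of 20.9 to 201. The log2 change on the log2(FPKM + 1) scale was -2.23 ± 0.16 (SE; adjusted p = 0.0154, limma), the rank by p being 26 of all tested genes. The gene reached the filter through its WT libraries. With 1 library left out the adjusted p ranged from 0.00272 to 0.035 (limma), with the spread taken from the genotype that still had both libraries. The call was lost with no filter on low values (adjusted p = 0.110). The size of the log2 change depended on the pseudocount, at -4.57 with 0.1 FPKM and -0.83 with 5 FPKM.

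Beside the fibroblast marker Col3a1, single markers of some other cell types were also called lower in Calu-KO. The summed level of 6 macrophage markers was 11.1 and 12.2 FPKM in WT and 4.17 and 4.12 FPKM in Calu-KO, with Lyz2 called lower, Adgre1 at 0 and Ptprc at no more than 0.00334 FPKM. The sum of 6 mesothelial markers was 35.8 and 32.7 FPKM in WT and 25.3 and 22.2 FPKM in Calu-KO, with Wt1 at no more than 0.0194 FPKM. Krt8 was called lower and passed the filter through its WT libraries (2.75 and 2.28 FPKM, against 0.0604 and 0.0699 FPKM in Calu-KO). The 6 epithelial markers summed to 0.526 and 1.14 FPKM in WT and 0.418 and 0.549 FPKM in Calu-KO, with overlapping groups and no read of Epcam or Sftpc. No endothelial, lymphocyte, erythroid or neutrophil marker reached 1 FPKM. For the 6 pericyte and smooth muscle markers the sum was 50.8 and 50.2 FPKM in WT and 37.0 and 53.0 FPKM in Calu-KO, with overlapping groups. Among them Des was called lower, whereas Cspg4 did not pass, at 36.7 and 34.5 FPKM in WT and 30.1 and 45.2 FPKM in Calu-KO. The part of any of these cell types in the fall of Slc22a18 was not tested.

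The genes directly beside Slc22a18 were nearly silent in WT already. Cdkn1c, which encodes the cell cycle inhibitor p57 and ends 12.7 kb away, had 1 and 2 WT reads against 0 in Calu-KO. Phlda2, a small pleckstrin-homology protein gene that limits placental growth and lies 2.21 kb away, had 3 reads in WT replicate 2 and 0 in the other libraries. With counts this low, no change of Cdkn1c or Phlda2 was detectable. Other inhibitors of the cell cycle were read: Cdkn1a, which encodes p21, stood at 13.2 and 13.5 FPKM in WT and 13.2 and 9.77 FPKM in Calu-KO. Cdkn1b, which encodes p27, stood at 16.1 and 16.2 FPKM in WT and 24.8 and 25.8 FPKM in Calu-KO, and its log2 change of 0.61 ± 0.10 (SE) missed the threshold (adjusted p = 0.0571, limma). Of 6 inhibitors on that list 4 were tested and none passed, and Cdkn2a and Cdkn2b had no read.

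Kcnq1ot1, the paternal noncoding RNA that silences this domain in cis, was read at a low level. It had 213 and 225 WT reads against 221 and 324 Calu-KO reads over a length of 93092 bases, 0.14 and 0.146 FPKM in WT and 0.14 and 0.238 FPKM in Calu-KO. Calu-KO replicate 1 lay between the WT libraries and replicate 2 above them. H19, the growth-restraining noncoding RNA at the far end of the region, had no read in any library, and neither had Igf2, its paternally expressed partner. Igf2r, the receptor that clears insulin-like growth factor 2, stood at 47.9 and 46.9 FPKM in WT and 32.2 and 48.4 FPKM in Calu-KO (adjusted p = 0.466, limma).

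Other genes of the domain, several of which are imprinted mainly in the placenta, included the highest of the list, Cd81 and Nap1l4. Cd81, a tetraspanin of the cell surface, stood at 96.4 and 95 FPKM in WT and at 101 and 88.8 FPKM in Calu-KO, with overlapping groups. Nap1l4, a histone chaperone gene 14.2 kb from Slc22a18, stood at 46.8 and 45.8 FPKM in WT and at 51.1 and 54.8 FPKM in Calu-KO (log2 change 0.19 ± 0.11, SE; adjusted p = 0.322, limma). Osbpl5, which encodes a lipid transfer protein at membrane contacts, lay between 12.7 and 13.5 FPKM in all libraries. Tssc4, which encodes a protein of the splicing machinery, lies within Trpm5 on the opposite strand (0.214 FPKM) and stood at 14.6 FPKM in both WT libraries and at 12.5 and 8.61 FPKM in Calu-KO (log2 change -0.45 ± 0.19, SE; adjusted p = 0.217, limma). Ascl2, a transcription factor of the placenta, had 2 and 1 WT reads against 7 and 6 Calu-KO reads, 4.53-fold more by reads with an exact 95% interval of 1.25 to 24.8 that covers counting error only. On the same footing the ratio of Calu-KO to WT reads was 1.30 (1.15 to 1.48) for Kcnq1ot1, 2.49 (1.04 to 6.56) for Ppp1r9a, 0.862 (0.393 to 1.86) for Mest and 0.942 (0.339 to 2.58) for Grb10. Replicates differed by more than counting error, those of Calu-KO the more, and the intervals leave that spread out. Ppp1r9a had 0 and 8 WT reads, and Mest 15 and 2. None of these 5 genes reached the filter of the main fit. With a filter of 0.1 FPKM 20 imprinted genes were tested (limma), Ascl2, Kcnq1ot1 and Mest among them, and Slc22a18 alone was called. In that setting 29 of all 17588 genes were called higher and 99 lower. With no filter 28 were tested, all 5 among them, and 0 were called, as were 0 of all 24462 genes. Calu itself did not pass with no filter (adjusted p = 0.0797, limma), so that setting cannot decide about single genes.

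Within 500 kb of Slc22a18, 13 other genes were tested, of which 1 was called lower and 1 higher, beside 1.83% and 0.942% of all tested genes. Tspan32, a tetraspanin gene, stood at 3.05 and 3.80 FPKM in WT and at 0.683 and 0.856 FPKM in Calu-KO (log2 change -1.32 ± 0.17, SE; adjusted p = 0.038, limma). It overlaps Tspan32os on the opposite strand, so reads of their shared stretch cannot be told apart. Tspan32 passed the filter of 1 FPKM through its WT libraries. Tnfrsf23, a decoy receptor gene of the tumour necrosis factor receptor family, stood at 8.48 and 9.03 FPKM in WT and at 19.4 and 23.9 FPKM in Calu-KO (log2 change 1.21 ± 0.14, SE; adjusted p = 0.0311, limma). Both calls were lost without WT replicate 1 (adjusted p = 0.107 for Tspan32 and 0.161 for Tnfrsf23) and without WT replicate 2 (0.188 and 0.137), and also with a filter of 0.1 FPKM. The adjacent genes Tnfrsf22 and Tnfrsf26 had log2 changes of 1.08 ± 0.22 and 1.07 ± 0.18 (SE) that did not pass (adjusted p = 0.0781 and 0.0561). Between them and Slc22a18, Nap1l4 and Cars, a tRNA synthetase gene, did not pass.

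**Figure D3:**
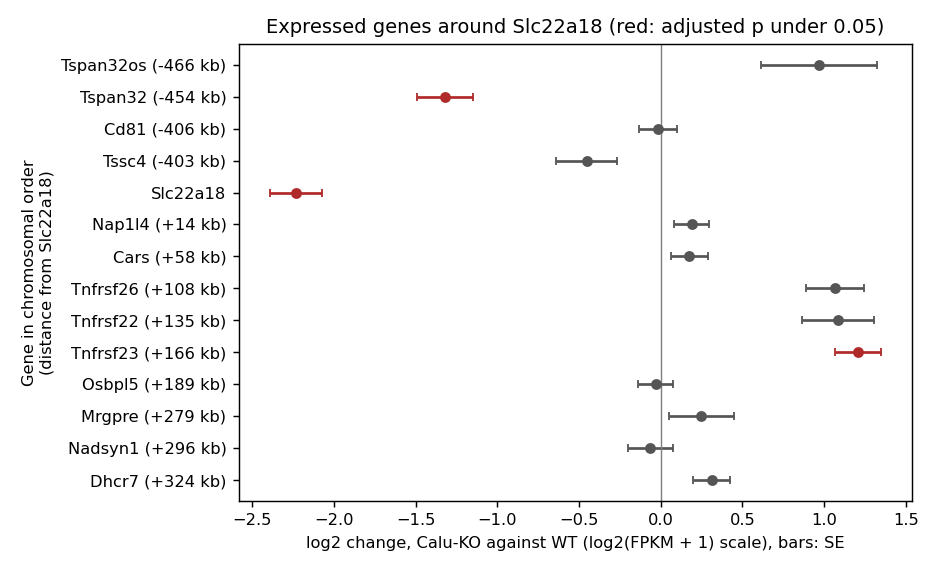
Log2 change of Calu-KO against WT on the log2(FPKM + 1) scale, with SE (x axis), of Slc22a18 and the 13 other genes tested within 500 kb of it, in chromosomal order with the distance between nearest ends (y axis). Slc22a18 and Tspan32 were called lower and Tnfrsf23 higher (red), with log2 changes of -2.23, -1.32 and 1.21.

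The bases before the start site are shown for Slc22a18 and for 4 genes that frame it: Cd81 and Osbpl5, expressed but not called on either side of it in the same domain, and Meg3 and Mest, silent or nearly silent in all libraries. Sequences are from RefSeq (GRCm38.p6), on the strand of the gene and 5′ to 3′, cut to the longest stretch of the 250 bases before the RefSeq start that lies outside annotated exons. Capitals mark CpG, the dinucleotide that carries DNA methylation. The positions are chr7:143473539-143473735 (plus) for Slc22a18, chr7:143052500-143052738 (plus) for Cd81, chr7:143757009-143757258 (minus) for Osbpl5, chr12:109540746-109540995 (plus) for Meg3 and chr6:30737800-30738049 (plus) for Mest.
Slc22a18: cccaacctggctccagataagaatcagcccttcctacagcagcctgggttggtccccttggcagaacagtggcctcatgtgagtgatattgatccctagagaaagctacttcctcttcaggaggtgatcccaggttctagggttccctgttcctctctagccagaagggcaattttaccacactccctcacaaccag
Cd81: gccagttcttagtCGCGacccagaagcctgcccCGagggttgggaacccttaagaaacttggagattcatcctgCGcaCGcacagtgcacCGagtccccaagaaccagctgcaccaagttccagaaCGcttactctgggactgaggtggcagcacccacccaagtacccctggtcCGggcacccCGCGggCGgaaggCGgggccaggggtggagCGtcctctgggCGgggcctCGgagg
Osbpl5: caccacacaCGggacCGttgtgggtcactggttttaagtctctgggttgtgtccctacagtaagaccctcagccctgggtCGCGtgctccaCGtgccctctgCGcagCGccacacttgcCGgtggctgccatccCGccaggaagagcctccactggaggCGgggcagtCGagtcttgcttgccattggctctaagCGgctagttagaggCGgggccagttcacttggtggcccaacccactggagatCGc
Meg3: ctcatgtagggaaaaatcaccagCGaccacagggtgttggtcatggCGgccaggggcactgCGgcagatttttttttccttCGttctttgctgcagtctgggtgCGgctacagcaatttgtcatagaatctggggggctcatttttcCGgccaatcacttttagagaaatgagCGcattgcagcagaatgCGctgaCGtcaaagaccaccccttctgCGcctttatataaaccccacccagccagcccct
Mest: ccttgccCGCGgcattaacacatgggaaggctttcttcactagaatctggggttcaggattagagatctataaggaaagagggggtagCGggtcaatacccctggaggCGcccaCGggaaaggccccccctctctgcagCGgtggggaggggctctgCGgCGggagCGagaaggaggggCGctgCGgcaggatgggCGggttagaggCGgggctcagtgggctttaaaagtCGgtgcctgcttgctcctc

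The stretch before Slc22a18 holds no CpG in its 197 bases, against 15 in 239 bases for Cd81 and 14 in 250 for Osbpl5. Meg3 has 10 and Mest 14 in 250 bases. Promoter windows of 250 bases were found for 32 of the 41 genes by symbol. Taking the window richest in CpG where a gene has several, the median was 12 CpG for the 32 genes, 18 for 8392 tested genes and 6 for all 27025 genes of the promoter table. Of the tested genes with a window 3.03% had 2 CpG or fewer. Among the 12 imprinted genes that were tested and had a window, these were Slc22a18 with 0 and Airn with 2. By detection, the median was 14 CpG for the 12 tested imprinted genes, 16.5 for the 10 under 1 FPKM and 8 for the 10 without a read, which ranged from 5 to 19.

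**Figure D4:**
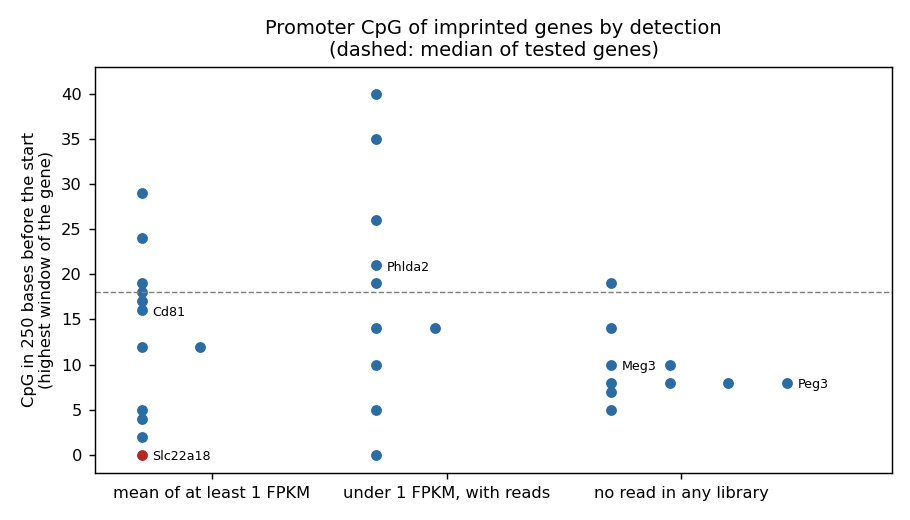
Number of CpG in the 250 bases before the start (y axis, highest window of a gene) for the 32 imprinted genes with a promoter window, 1 point per gene, by detection over the 4 libraries (x axis). The dashed line is the median of 18 for tested genes, and Slc22a18, in red, has 0.

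A pair of short motifs was searched on both strands in every window of a gene, not only in the window richest in CpG. TGCCGC, the core letters read by the imprint-keeping protein ZFP57 when methylated, was present for 7 of the 32 genes (21.9%), against 16.8% of tested genes and 9.84% of all genes of the promoter table. The 7 were Copg2, Meg3, Mest, Osbpl5, Plagl1, Zdbf2 and Zim1. For Zdbf2 the motif lay in a window with 13 CpG and not in its richest window, with 26. GGGGCCCC, which reads the same on both strands and is a core bound by the Plagl1 protein, was present for Peg3 and Ppp1r9a. That was 6.25% of the 32 genes, against 1.31% of tested genes and 1.03% of all genes of the promoter table. Neither Peg3 nor Ppp1r9a was tested. Among the 12 tested imprinted genes with a window, GGGGCCCC was present for 0% and TGCCGC for 16.7%, near the 16.8% of tested genes. These matches describe letters and do not show binding.

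Outside these clusters 8 imprinted genes were expressed, and none passed. Impact, a paternally expressed gene on chromosome 18 that restrains the amino acid sensor GCN2, stood at 31.6 and 34.2 FPKM in WT and at 39.1 and 53.4 FPKM in Calu-KO. Calu-KO lay above WT in both libraries, but the spread between them was wide, and the log2 change of 0.46 ± 0.18 (SE) did not pass (adjusted p = 0.193, limma). Slc38a4, an amino acid transporter gene that is paternally expressed, stood at 18.3 and 18.8 FPKM in WT and 16.2 and 20.3 FPKM in Calu-KO, with overlapping groups. Gnas, which encodes the stimulatory G protein alpha subunit, stood at 7.70 and 7.39 FPKM in WT and at 6.92 and 4.29 FPKM in Calu-KO (log2 change -0.40 ± 0.21, SE; adjusted p = 0.302, limma). The gene-level value sums transcripts from several differently imprinted start sites of Gnas.

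On chromosome 15 a noncoding RNA lies within its host gene. Peg13, paternally expressed from within Trappc9, stood at 7.61 and 8.10 FPKM in WT and at 10.2 and 10.99 FPKM in Calu-KO. The groups were separate and the replicates close, and of the 16 genes Peg13 had the lowest unadjusted p after Slc22a18, 0.0181, which did not pass after adjustment (log2 change 0.39 ± 0.11, SE; adjusted p = 0.135, limma). Trappc9, a subunit of a vesicle-tethering complex, stood at 3.16 and 3.45 FPKM in WT and at 3.05 and 4.30 FPKM in Calu-KO. Peg13 and Trappc9 are on the same strand, so reads of unspliced Trappc9 RNA cannot be told apart from Peg13.

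Nnat and Blcap form a similar pair on chromosome 2. Blcap, which encodes a small membrane protein, stood at 27.3 and 28.0 FPKM in WT and 23.1 FPKM in both Calu-KO libraries, with separate groups, and its log2 change of -0.25 ± 0.10 (SE) did not pass (limma, adjusted p = 0.215). Nnat, which encodes neuronatin, a regulator of calcium in the endoplasmic reticulum, lies within Blcap on the opposite strand. It stood at 1.20 and 0.987 FPKM in WT and 1.36 and 1.27 FPKM in Calu-KO. The strand setting is not stated, so reads given to Nnat cannot be told apart from Blcap RNA. Airn, the paternal noncoding RNA that overlaps Igf2r by 28354 bases and silences it in cis, stood at 1.60 and 1.54 FPKM in WT and 1.15 and 1.14 FPKM in Calu-KO. Its groups were separate, and the log2 change of -0.26 ± 0.16 (SE) did not pass (adjusted p = 0.354, limma). Igf2r had a mean of 43.9 FPKM, and without a stated strand setting reads of the shared stretch cannot be told apart.

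**Figure D5:**
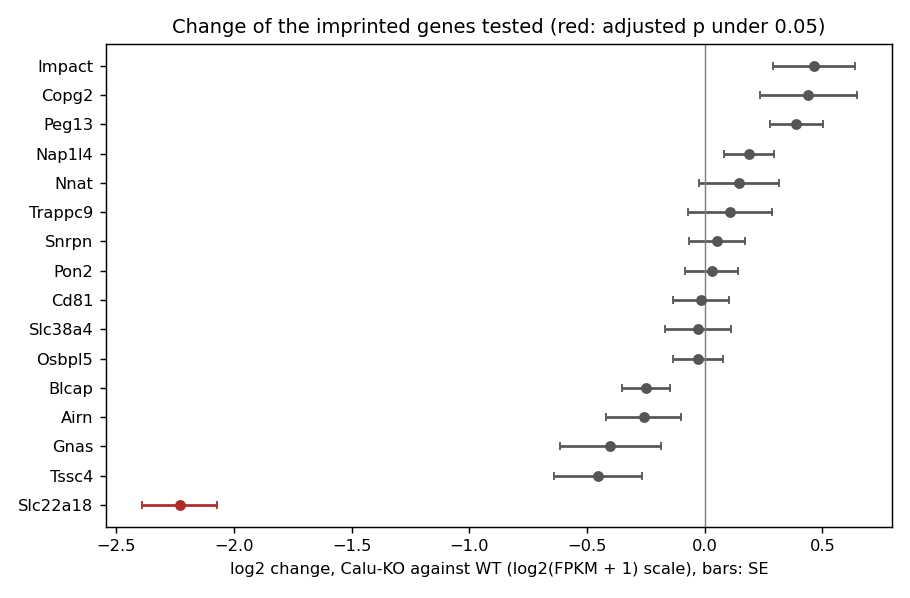
Log2 change of Calu-KO against WT on the log2(FPKM + 1) scale, with SE (x axis), of the 16 imprinted genes tested (y axis). Slc22a18, at -2.23, is the gene past the threshold (red), and the other 15 lie between -0.45 and 0.46.

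Several of these differences were larger in Calu-KO replicate 2. Tssc4, Copg2, Gnas and Impact were each farther from WT in Calu-KO replicate 2 than in replicate 1. After rescaling by total reads the log2 changes were 0.34 for Copg2 and 0.36 for Impact, and -0.55 for Tssc4 and -0.49 for Gnas. Of the genes not called with all libraries, Tssc4, Nap1l4, Copg2, Blcap, Gnas, Peg13 and Impact passed when Calu-KO replicate 1 was left out, where the spread within a group comes from the WT pair alone. With Slc22a18 that made 8 of the 16 called, or 50%, and in the same setting 48.2% of all tested genes were called, so the share was near the background. Without Calu-KO replicate 2 the log2 changes were -0.21 for Tssc4, 0.14 for Nap1l4, 0.16 for Copg2 and -0.25 for Blcap. They were -0.11 for Gnas, 0.34 for Peg13 and 0.24 for Impact.

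Genes that keep imprints were mostly well expressed, and the Dnmt3 genes, of de novo methylation, were low. Of 30 genes of imprint maintenance and DNA methylation 24 were tested and none passed (limma). Of all tested genes 0.942% were called higher and 1.83% lower, so few calls or none would be found among 24 genes at those shares. The maintenance methyltransferase gene Dnmt1 stood at 41.6 and 40.4 FPKM in WT and at 57.6 and 64.8 FPKM in Calu-KO (log2 change 0.57 ± 0.12, SE; adjusted p = 0.0796), and its partner Uhrf1 at 72.7 and 72.6 against 96.7 and 104 FPKM (0.46 ± 0.11; adjusted p = 0.0979). The de novo methyltransferase gene Dnmt3a stood at 3.42 and 3.26 FPKM in WT and at 0.853 and 1.40 FPKM in Calu-KO (log2 change -1.04 ± 0.19, SE; adjusted p = 0.0644). Dnmt3b ran from 1.54 to 3.21 FPKM. Dnmt3l stood at 2.43 and 2.28 FPKM in WT and at 0.990 and 0.618 FPKM in Calu-KO (log2 change -0.90 ± 0.18, SE; adjusted p = 0.0793, limma). Dnmt1, Uhrf1, Dnmt3a, Dnmt3b and Dnmt3l were picked after their values were seen. Trim28, the corepressor recruited to imprints, lay between 91.6 and 117 FPKM and Zfp445 between 19.5 and 21.9 FPKM, whereas Zfp57 and Dppa3, which act in the egg and early embryo, had no read.

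Of 51 further imprinted genes in the table, 17 had no read (33.3%), near the 29.5% of protein-coding rows. Of the 20 tested, Tnfrsf23 was called higher and Tspan32, which passed the filter through WT, lower, beside 0.942% and 1.83% of all tested genes. The silent ones included Igf2, Dio3, Nap1l5, Begain and Zim2. Among relatives of the imprinted genes, none passed in the lists of Notch signalling (5 tested), the Grb7 family and its receptors (4), MAGE proteins (3), sarcoglycans (3), SLC38 transporters (5), tetraspanins (3), paraoxonases (1), PHLDA (2) and PLAG (2) proteins. Of 11 tested G protein alpha subunits and adenylyl cyclases, Adcy7 rose (5.91 and 5.76 against 10.6 and 12.1 FPKM; adjusted p = 0.0412) and Adcy3 fell (2.25 and 2.23 against 0.511 and 0.581 FPKM; adjusted p = 0.0482, limma). Adcy3 passed the filter through WT. These are 1 call in each direction among 11 genes, where 0.942% of all tested genes were called higher and 1.83% lower. Both calls were lost without WT replicate 1 (adjusted p = 0.348 for Adcy7 and 0.270 for Adcy3) or WT replicate 2 (0.364 and 0.243). They were also lost with a filter of 0.1 FPKM (0.0706 and 0.0615), with no filter (0.127 and 0.138) and after rescaling by total reads (0.0514 and 0.0549), and that of Adcy3 with a pseudocount of 0.1 FPKM (0.0613).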

How the data were processed

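The authors deposited 1 table of FPKM values with gene lengths and mm10 coordinates. Per the labels' protocols, the aligner of the paired-end reads was HISAT2 2.0.5, and mm10 is per the submitters' processing notes. Which program counted reads, and with what strand setting, is not given in the sources used here. Multiplied by gene length and divided by the step of its library, 100% of FPKM values came out whole within 0.001 reads, which gave reads per gene. In genes with at least 100 reads the median chi-square between replicates was 1.22 in WT and 9.23 in Calu-KO, more than counting error.

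The 11885 genes whose mean reached 1 FPKM were tested on log2(FPKM + 1), where changes of low genes look smaller than they are, with limma 3.58.1 in R 4.3.3 (intensity-dependent prior, two-sided, Benjamini-Hochberg, threshold 0.05). With 2 libraries a group, the smallest exact permutation p is 0.333. Steps were tested on simulated data. Members and lists were chosen with earlier results of these data known. Every member is named. Other lists contribute genes past the threshold, at most 4 each, with Calu, Cdkn1a, Cdkn1b, Igf2 and Igf2r; other genes named were picked for context after their values were seen. Replicate numbers were not taken to pair libraries. Alternatives were another pseudocount, filter, scaling, prior or test, a replicate block and leaving out each library.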

Additional observations from a re-analysis of the deposited data

How the results depend on the processing

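Of 192 combinations of the 16 tested imprinted genes with 12 alternatives, 178 kept direction and side of the threshold, 1 lost its call, 7 gained one and 6 changed sign. The lost call was Slc22a18 with no filter on low values, and the 7 gained were all without Calu-KO replicate 1. Signs changed for genes near 0: leaving out single libraries moved Osbpl5 between -0.066 and 0.0057, Slc38a4 between -0.183 and 0.12, Cd81 between -0.107 and 0.0733 and Trappc9 between -0.0874 and 0.302, and rescaling by total reads gave -0.061 for Pon2 and -0.0385 for Snrpn. Rescaling moved the median of all genes from 0.01 to -0.09. Over single libraries left out, imprinted genes called ran from 0 to 4 higher and 1 to 4 lower, and all genes from 8 to 2926 higher and 34 to 2805 lower. With no filter, 0 genes were called in either direction (limma; 3886 at an unadjusted p under 0.05), 0 imprinted genes lower among them; at 0.1 FPKM, 29 higher and 99 lower. Rescaling gave 45 higher and 152 lower. With the replicate number as a block 181 genes were higher and 312 lower, with 0 and 1 imprinted; deviations of same-numbered libraries correlated at 0.02 across genes. Voom on recovered reads, added after the data were seen, gave 361 higher and 469 lower, with 0 and 1 imprinted. The cause of these shifts was not tested. The planned edgeR and DESeq2 alternatives were not run. The 13 genes without a read and the 6 with 1 to 3 reads are too shallow for a change to be detectable.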
